A study of Mus musculus with 6 samples.

Results

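Long noncoding RNAs of the nucleus and of neurons were followed in whole retina after an injection of saline or of microbeads. The list held 10 gene names, Malat1, Neat1, Miat, Meg3, Rian, Mirg, Tug1, Gas5, Snhg11 and Snhg1, and members were taken by an exact match of the gene name in the count table. Of these, 9 were found among the 31169 genes of the table, and all 9 were among the 17707 genes that passed the filter on low counts and were tested; Rian was not analysed here. The retinas were from C57BL/6 mice that were injected into the anterior chamber at 1 month of age and were 2 months old at harvest, after 4 weeks. The saline group held 3 libraries and served as the control, and the microbead group held 3 libraries from eyes given beads of 15 μm diameter. No transgene or other agent was named for either group. The labels do not state that each library came from a separate mouse, so that the p-values measure the spread between these libraries, which may be technical in part. Microbeads obstruct the outflow of aqueous humor and raise the pressure in the eye, and the question addressed by the comparison was how the RNA of the retina differed under raised pressure.

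Malat1 and Neat1 are neighbouring genes whose RNAs stay in the nucleus. Malat1 RNA collects in nuclear speckles, which store splicing factors, and the long Neat1 isoform is the scaffold of paraspeckles, bodies that hold RNA-binding proteins such as NONO and SFPQ. Miat, also known as Gomafu, forms nuclear domains of its own in neurons and was first described in the developing retina. Meg3, Rian and Mirg lie on the maternally expressed strand of the imprinted Dlk1-Dio3 region, where long transcripts carry clusters of snoRNAs and microRNAs. Gas5 and Snhg1 are snoRNA host genes: box C/D snoRNAs are cut from their introns, and their spliced RNAs are broken down through nonsense-mediated decay when they are translated. Snhg11 is a host gene of the same naming series that is abundant in neurons, and Tug1 is a broadly expressed RNA that was found through its role in photoreceptor development.

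The libraries held 36085737 to 46481382 counts in the saline group and 13574949 to 19834366 in the microbead group. The library names in the sample descriptions form one series for the saline group and a different one for the microbead group, although the sample titles run through both groups, and the series of library names and the injection cannot be told apart. Mitochondrial genes held 3.35% ± 0.20 (SD, n = 3) of the counts in saline and 9.84% ± 0.88 (SD, n = 3) in microbead libraries. Rod markers were abundant in every library (summed level 52792 to 78882 counts per 1000000, CPM), as fits the labelled tissue. Of the 5 endothelial markers, 3 were lower after microbeads past the threshold, against 6.31% of all genes tested. Their summed levels were 76.1 to 101.5 CPM in saline and 43.7 to 56.3 CPM in microbead libraries. Their median log2 fold change was -0.94, against -1.22 for the 5 microglia markers, of which 0 passed. The rod marker Nrl and the Müller glia marker Dkk3 were also lower past the threshold, and the cone marker Arr3 was higher. The other 5 rod, 4 Müller glia and 4 cone markers did not pass. The median log2 fold changes of these lists were -0.19, -0.31 and -0.20, so the cone median had the opposite sign to Arr3. Summed cone markers were at 1085 ± 110 CPM in saline and 1137 ± 85 CPM in microbead libraries (SD, n = 3 each). Saline replicate 3 stood apart before any comparison of the groups. It was more than 2 log2 units below the mean of the other saline libraries in 155 of 15087 genes with a mean of at least 1 CPM (1.03%), against 31 genes for saline replicate 1 and 25 for saline replicate 2 measured the same way. Counted in either direction the contrast was smaller, 1.28% of genes for saline replicate 3 against 0.597% and 0.179% for saline replicates 1 and 2. Lens markers summed to 32.5 CPM in this library and to at most 3.45 CPM in every other one (4 of 5 markers in the table, of which 3 were at 0 in at least 1 library). The part of these differences in the results below was not tested.

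Promoter windows are shown for the members whose windows held a TATA element or a cAMP response element. Gas5 and Snhg1 moved together across the libraries, while Meg3 moved with another group of members. A link between these letters and that grouping was not tested. The likeness of Gas5 and Snhg1 rests much on microbead replicate 1, where both were highest. The windows run from 250 bases before to 50 bases after a start in RefSeq (GRCm38.p6) and are read 5′ to 3′ on the strand of the gene, which is the plus strand for all 3 genes. Capitals mark TGACGTCA, the cAMP response element. They also mark the TATA letters TATAAA on either strand, and their variant, in which the last letters are TA (the variant is TATATA). At the start they mark a C that is followed by 4 pyrimidines. Both kinds of TATA letters overlap in Meg3. Snhg1 has the TATA letters as their reverse complement. Both strands were searched except for the tract at the start. The table has another window for Gas5 and another for Meg3, and neither of those held any of these letters. The windows are chr1:161034916-161035215 for Gas5, chr19:8723237-8723536 for Snhg1 and chr12:109540746-109541045 for Meg3.
Gas5: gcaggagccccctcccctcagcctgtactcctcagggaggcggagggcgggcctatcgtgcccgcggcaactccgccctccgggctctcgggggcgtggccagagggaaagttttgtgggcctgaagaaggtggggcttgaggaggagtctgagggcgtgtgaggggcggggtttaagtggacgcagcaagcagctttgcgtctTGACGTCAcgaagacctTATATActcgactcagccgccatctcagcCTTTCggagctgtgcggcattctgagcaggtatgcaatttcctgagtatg
Snhg1: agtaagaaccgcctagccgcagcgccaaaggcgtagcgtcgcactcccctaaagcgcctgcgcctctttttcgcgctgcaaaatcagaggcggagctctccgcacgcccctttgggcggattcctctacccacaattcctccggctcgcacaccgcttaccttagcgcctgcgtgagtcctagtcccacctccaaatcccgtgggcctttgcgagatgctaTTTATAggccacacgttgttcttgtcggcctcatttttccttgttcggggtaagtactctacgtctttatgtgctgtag
Meg3: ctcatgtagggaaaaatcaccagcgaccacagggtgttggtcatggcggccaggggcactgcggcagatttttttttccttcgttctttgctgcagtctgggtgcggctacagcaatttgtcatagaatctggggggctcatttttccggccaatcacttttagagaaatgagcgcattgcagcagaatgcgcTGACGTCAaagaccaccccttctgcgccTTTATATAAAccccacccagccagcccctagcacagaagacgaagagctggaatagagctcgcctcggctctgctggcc

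The cAMP response element began at position -46 from the start in Gas5 and at -57 in Meg3, and the TATA letters began at -29 in Gas5, Snhg1 and Meg3. Of 32851 promoter windows of the same length, 1.79% held TGACGTCA, 13.6% held TATAAA, 5.67% held TATATA and 2.51% had the pyrimidine tract at the start. The windows of Malat1, Miat, Mirg, Snhg11 and Tug1 held none of the first 3 sets of letters, and that of Miat had the tract. The windows of Miat, Mirg and Tug1, and the Gas5 window shown, lie inside the annotated gene (GENCODE vM21). They do not reach its annotated 5′ end, so they say nothing of the sequence there. The window of Snhg1 did not have the tract. These are matches of letters and were not tested as sites.

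The 3′ ends of Malat1 and Neat1 are shown because Malat1 RNA and the long Neat1 isoform are known to end without a polyadenylated tail made in the usual way, in a triple helix of U-rich motifs with an encoded A-rich tract, while the libraries were made from poly(A) RNA. The stretches were read from the longest annotated transcripts (GENCODE vM21), from base 6606 to 6691 of the 6983 bases of Malat1 and from base 20719 to the last base, 20771, of Neat1. Capitals mark the U-rich motif, written with T, with which each stretch begins, and the end of the A-rich tract. The Malat1 stretch holds another U-rich motif, in lower case, before the A-rich tract. The Neat1 capitals have the letters of that lower-case motif, not those of the Malat1 capitals. The Neat1 stretch holds no other U-rich motif, so the pair of motifs is shown for Malat1 only.
Malat1: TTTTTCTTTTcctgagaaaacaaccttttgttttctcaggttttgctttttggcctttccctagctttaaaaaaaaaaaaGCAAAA
Neat1: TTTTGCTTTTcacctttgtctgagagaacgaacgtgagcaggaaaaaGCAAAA

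Of the 9 members, 3 rose after microbeads past the threshold, an adjusted p under 0.05 from edgeR's quasi-likelihood test over all 17707 genes, against 6.46% of all genes tested. These were Miat, Mirg and Snhg1. None fell past it, against 6.31% of all genes. At an unadjusted p under 0.05 from edgeR, 7 members were higher, against 15.3% of all genes, and 0 lower, against 16.2%. With DESeq2 and limma-voom 0 were lower as well after adjustment, against 9.6% and 5.86% of all genes. The 3 microbead libraries lay above all 3 saline libraries in 7 of 9 members, Neat1, Miat, Meg3, Mirg, Gas5, Snhg11 and Snhg1, against 18.8% of all genes tested, and below them in none, against 18.9%. The median log2 fold change of the members was 1.81, against -0.03 over all genes tested. Genes annotated as lincRNA showed the same lean: 78 of 566 were higher past the threshold (13.8%) and 7 were lower (1.24%), and 38.3% lay without overlap above saline. Without microbead replicate 1, 2 or 3, no member passed the threshold of edgeR's test, and 4, 7 and 5 members were higher at an unadjusted p under 0.05, against 13%, 13.3% and 10.7% of all genes. The number of all genes past the adjusted threshold was then 748, 768 and 46, from 2261 with all libraries, or 3.89%, 4.01% and 0.238% of the genes tested. In bulk retina, fewer cells of a type and less RNA per cell cannot be told apart.

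**Figure D1:**
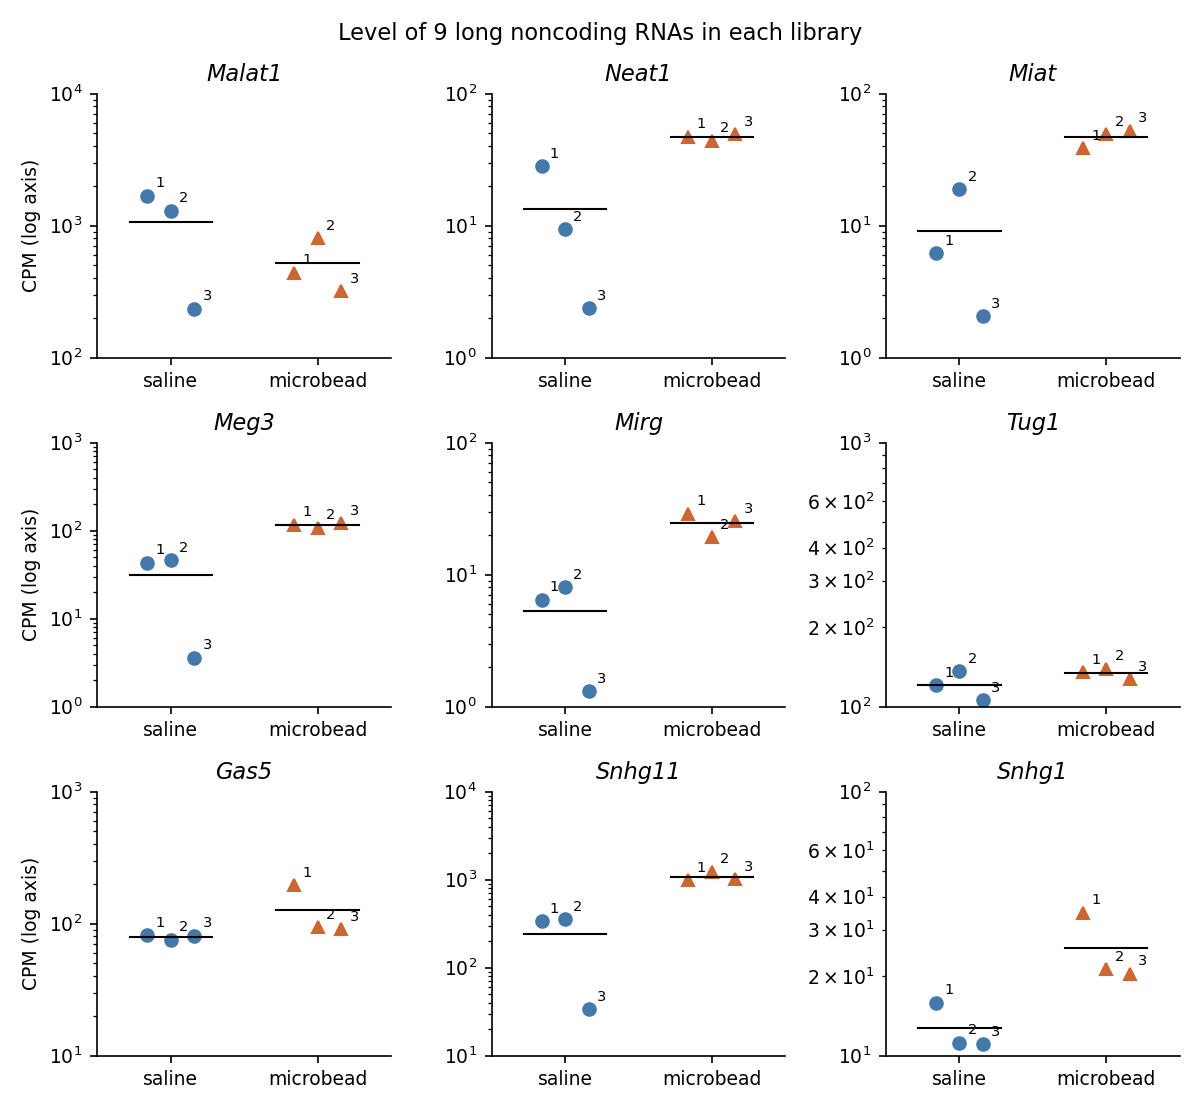
Level of each member in counts per 1000000 (CPM, log axis) in the 3 saline (circles) and 3 microbead libraries (triangles), numbered by replicate, with group means as lines. Microbead libraries lie above all saline libraries in 7 of 9 members, Malat1 and Tug1 overlap, and saline replicate 3 is far below the other saline libraries in 6 members.

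Malat1 (ENSMUSG00000092341.2; chr19:5795690-5802672, minus strand, 1 exon, lincRNA) was at 1688, 1297 and 235 CPM in saline and at 441, 803 and 320 CPM in microbead libraries. The groups overlapped because of saline replicate 3, which held the lowest value of all. Its log2 fold change was -1.04 (SE 0.59, adjusted p = 0.260). Without saline replicate 3, every microbead library was below both saline libraries, and Malat1 fell by 1.52 on the log2 scale (SE 0.33, adjusted p = 0.0250 from edgeR). Of the 6 fits that left out a library, Malat1 passed the threshold in this 1 only (adjusted p from 0.0250 to 0.535). Without saline replicate 1 its log2 fold change was -0.56 (adjusted p = 0.528 from edgeR). With all libraries kept, it passed in 1 of 10 alternatives, the fit without the filter (adjusted p = 0.00799). Microbead replicate 2 held the most Malat1 within its group, 2.51 times the level in microbead replicate 3.

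Neat1 (ENSMUSG00000092274.2; chr19:5824708-5845478, minus strand, 1 exon, lincRNA) was at 28.3, 9.40 and 2.37 CPM in saline and at 47.2, 44.1 and 49.1 CPM in microbead libraries. The microbead libraries were within 1.11 times of each other, while the saline libraries spread widely. Its log2 fold change of 1.81 (SE 0.65, adjusted p = 0.0911) did not pass the threshold. Without saline replicate 1, the library with the most Neat1 in its group, the log2 fold change was 2.97 (adjusted p = 0.00779), and without saline replicate 3 it was 1.31 (SE 0.38, adjusted p = 0.0587).

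Because the fold changes of Malat1 and Neat1 had opposite signs, although neither passed the threshold, each member was set against Malat1 within the same library, a ratio that does not depend on library scaling and that was chosen after the values were seen. The log2 ratio of Neat1 to Malat1 was -5.90, -7.11 and -6.64 in saline and -3.22, -4.19 and -2.70 in microbead libraries. The means differed by 3.18 on the log2 scale (9.04-fold; two-sided exact permutation p = 0.1, the smallest that 3 against 3 libraries can give, and 0.16 when adjusted over the 8 ratios). Without saline replicate 3 the difference was 3.13. The ratios of Miat, Meg3, Mirg and Snhg11 to Malat1 also lay without overlap above saline, with differences of 3.29 to 3.63 and the same exact p-values. Over all other genes tested, 7.64% had a ratio to Malat1 without overlap in this direction. For Tug1, Gas5 and Snhg1 the ratios overlapped, with differences of 0.88 (exact permutation p = 0.4), 1.31 (p = 0.3) and 1.71 (p = 0.2). These differences were 1.68, 2.21 and 2.5004 without saline replicate 3, and the groups then did not overlap. In that setting Malat1 itself had a log2 fold change of -1.52, and Tug1 had 0.06. The share of all genes whose ratio then lay without overlap was not computed. The separation is therefore not read as a result about these members.

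**Figure D2:**
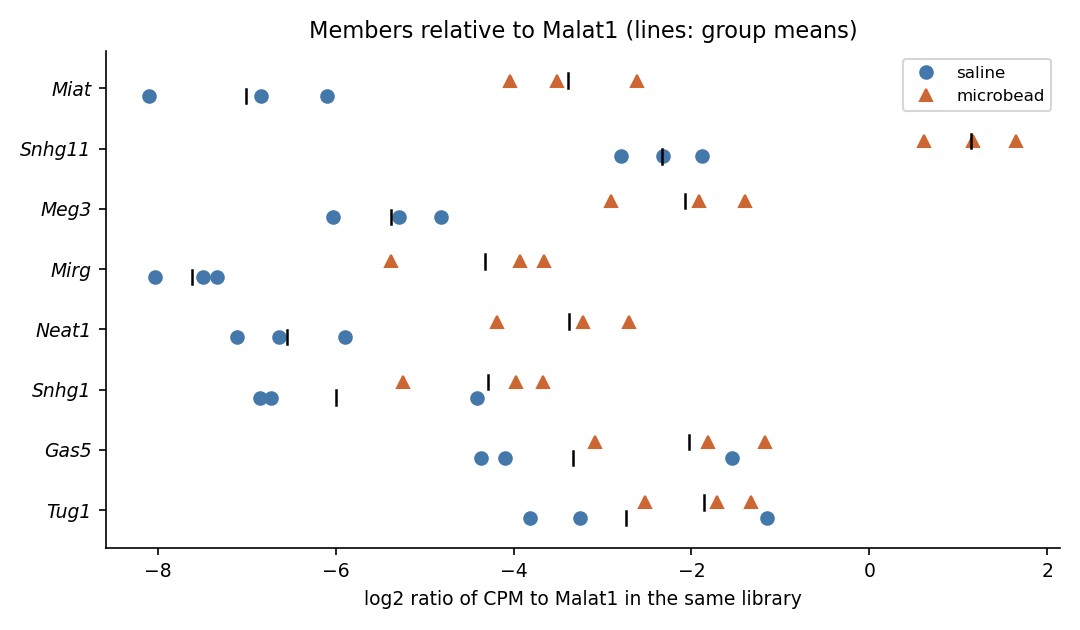
Log2 ratio of the CPM of each member to that of Malat1 in the same library, for saline (circles) and microbead libraries (triangles), with group means as lines. Neat1, Miat, Meg3, Mirg and Snhg11 separate into groups without overlap, whereas Tug1, Gas5 and Snhg1 overlap through saline replicate 3.

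Malat1 made up 72.5%, 66.3% and 49.4% of the summed CPM of the 9 members in saline and 21.8%, 32.0% and 17.6% in microbead libraries. The sum of all 9 was 1587 ± 979 CPM in saline and 2116 ± 356 CPM in microbead libraries (SD, n = 3 each), so that the groups differed by less than the spread between saline libraries. The sum of the 8 members without Malat1 was 640, 658 and 241 CPM in saline and 1585, 1705 and 1494 CPM in microbead libraries, with no overlap. Of single genes tested, 18.8% lay without overlap above saline. Snhg11 alone gave 338, 353 and 34.0 CPM of this sum in saline and 988, 1230 and 1007 CPM in microbead libraries. These sums are descriptions, and no test was made on them.

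Miat (ENSMUSG00000097767.8; chr5:112213228-112229395, minus strand, 6 merged exons, lincRNA) was at 6.18, 18.9 and 2.05 CPM in saline and at 38.7, 49.0 and 52.4 CPM in microbead libraries. The lowest microbead library was above the highest saline library, saline replicate 2. Its log2 fold change of 2.36 (SE 0.61, adjusted p = 0.0379) was the largest of the 9 members. Without saline replicate 3 it was 1.89 (SE 0.40, adjusted p = 0.0226), and without saline replicate 2, the saline library with the most Miat, it was 3.50 (SE 0.45, adjusted p = 0.0128). It missed the threshold without saline replicate 1 (2.14, adjusted p = 0.0522) and without any of the microbead libraries (2.26 to 2.48, adjusted p = 0.0861 to 0.134 from edgeR).

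Snhg11 (ENSMUSG00000044349.15; chr2:158375638-158386145, plus strand, 4 merged exons, typed as protein coding in GENCODE vM21) was at 338, 353 and 34.0 CPM in saline and at 988, 1230 and 1007 CPM in microbead libraries. All microbead libraries were above saline, and saline replicate 3 was 10.2 times below the mean of the other saline libraries. The log2 fold change was 2.15 (SE 0.65, adjusted p = 0.0580), just outside the threshold. Without saline replicate 3 it was 1.64, with a smaller error (SE 0.21, adjusted p = 0.00515), and Snhg11 rose past the threshold. Over the 10 alternatives that kept all libraries it passed in 4, with adjusted p from 5.36e-07 without the filter to 0.0640 with the replicate block, and it passed in 2 of the 6 fits that left out a library (0.00515 to 0.156).

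Meg3 (ENSMUSG00000021268.17; chr12:109541001-109571726, plus strand, 8 merged exons, lincRNA) was at 43.4, 46.0 and 3.59 CPM in saline and at 117, 108 and 121 CPM in microbead libraries. The microbead libraries were within 1.13 times of each other. Meg3 had a log2 fold change of 1.89 (SE 0.67, adjusted p = 0.0882). Without saline replicate 3 it was 1.37 (SE 0.19, adjusted p = 0.00652). Saline replicate 3 held 12.4 times less Meg3 than the mean of the other saline libraries. With all libraries kept, Meg3 passed in 1 of 10 alternatives, the fit without the filter (adjusted p = 6.49e-06). Of the 6 fits that left out a library, Meg3 passed only in the 1 without saline replicate 3 (adjusted p from 0.00652 to 0.216 from edgeR).

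Mirg (ENSMUSG00000097391.8; chr12:109729764-109749460, plus strand, 14 merged exons, lincRNA), the microRNA-rich transcript downstream in the same cluster, was at 6.47, 8.02 and 1.31 CPM in saline and at 29.0, 19.3 and 25.3 CPM in microbead libraries. It rose with a log2 fold change of 2.21 (SE 0.52, adjusted p = 0.0286), and without saline replicate 3 the value was 1.76 (SE 0.27, adjusted p = 0.00902). It missed the threshold of edgeR's test without saline replicate 2 (adjusted p = 0.05002) and without any of the microbead libraries (0.0605 to 0.111). The log2 ratio of Mirg to Meg3 within a library averaged -2.24 ± 0.69 in saline and -2.25 ± 0.24 in microbead libraries (SD, n = 3 each; exact permutation p = 1). The difference was -0.01, and it was 0.38 without saline replicate 3, whose ratio of -1.45 was the highest of all 6. Of the 15 microRNA genes annotated inside Mirg, 6 were in the count table, with 41 counts in all over the 6 libraries, and the 2 microRNA genes inside Meg3 were not analysed here.

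Gas5 (ENSMUSG00000053332.13; chr1:161034422-161038539, plus strand, 3 merged exons, processed transcript) was at 81.8, 75.7 and 80.8 CPM in saline and at 195, 94.5 and 91.2 CPM in microbead libraries. Its saline libraries were the closest together of any member, and saline replicate 3 was not low in it. Microbead replicate 1 was the high library of the microbead group. Gas5 had a log2 fold change of 0.68 (SE 0.28, adjusted p = 0.135), and without microbead replicate 1 it was 0.22 (adjusted p = 0.353 from edgeR).

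Snhg1 (ENSMUSG00000108414.1; chr19:8723475-8726443, plus strand, annotated as 1 merged exon, processed transcript) was at 15.9, 11.2 and 11.1 CPM in saline and at 34.8, 21.2 and 20.4 CPM in microbead libraries. The same microbead library was high as for Gas5. Snhg1 rose with a log2 fold change of 1.00 (SE 0.26, adjusted p = 0.0393). Without microbead replicate 1 the value was 0.71 (adjusted p = 0.1001), and it passed the threshold in 1 of the 6 fits that left out a library. The 10 snoRNA genes annotated inside Gas5 and the 8 inside Snhg1 were not analysed here, and of the 2 inside Snhg11, 1 was in the count table, with 96 counts in all.

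Tug1 (ENSMUSG00000056579.17; chr11:3639785-3649673, minus strand, 2 merged exons) was the steadiest member, at 120, 136 and 106 CPM in saline and at 135, 139 and 127 CPM in microbead libraries. The groups overlapped. The log2 fold change was 0.15 (SE 0.16, adjusted p = 0.576), and over all 16 other fits it ran from 0.06 to 0.29 and never passed the threshold.

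Without saline replicate 3, 4 members were higher past the threshold (Miat, Meg3, Mirg and Snhg11) and Malat1 was lower, against 4.32% of all genes higher and 4.1% lower in that fit. Neat1 and Snhg1 did not pass it. The number of members without overlap and higher after microbeads stayed at 7 of 9, against 22.1% of all genes, and 1 of 9 was without overlap and lower, against 23.2%.

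**Figure D3:**
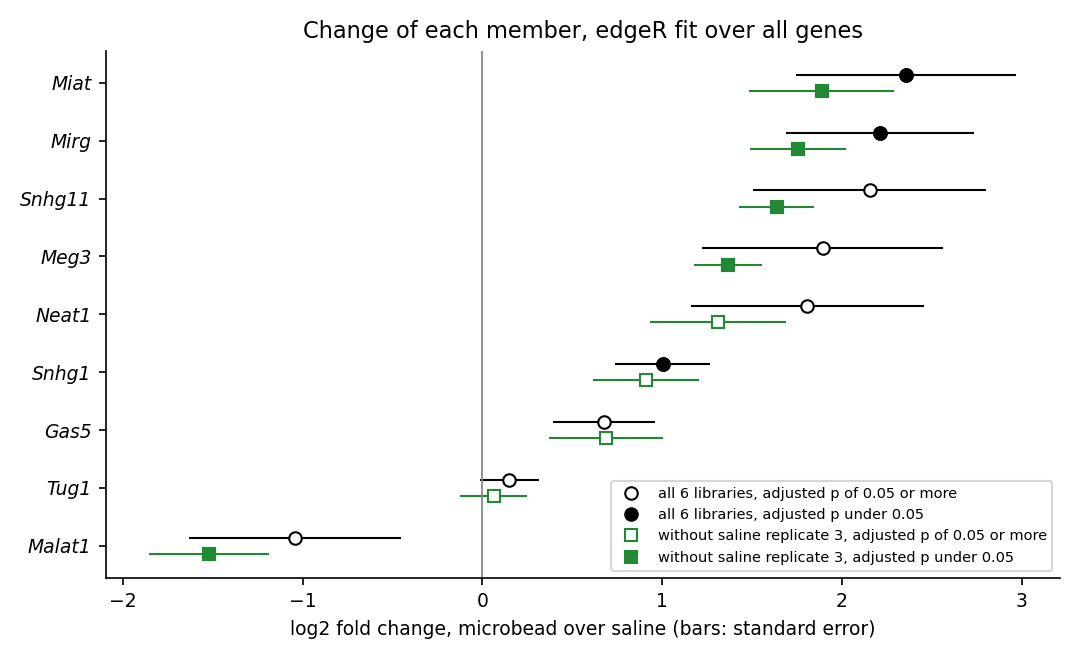
Log2 fold change of each member, microbead over saline, with its standard error from edgeR, for all 6 libraries (circles) and without saline replicate 3 (squares), filled where the adjusted p was under 0.05. Without that library the standard errors of Malat1, Neat1, Miat, Meg3, Mirg and Snhg11 shrink, and Malat1, Meg3 and Snhg11 pass the threshold while Snhg1 no longer does.

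Saline replicate 3 divided the members. Compared as log2 (CPM + 0.5) with the mean of the other saline libraries, the difference was -3.46 for Meg3, -3.32 for Snhg11, -2.65 for Malat1, -2.56 for Neat1, -2.16 for Miat and -2.09 for Mirg. Between 0.00663% and 0.868% of 15087 genes were lower than these 6 members in the same comparison. For Tug1, Snhg1 and Gas5 the differences were -0.27, -0.26 and 0.04, inside the bulk of genes. Retinal ganglion cell markers did not share the low level: the 6 retinal ganglion cell markers summed to 1032 CPM in saline replicate 3, to 802 CPM in saline replicate 2 and to 284 CPM in saline replicate 1. Müller glia markers summed to 7563 CPM in saline replicate 3 against 3607 and 5081 CPM in saline replicates 1 and 2, and pigment epithelium markers to 40.6 CPM against 7.91 and 15.3 CPM. The part of these cell types in the low levels was not tested. By annotated type, the median difference was 0.05 over 13451 protein-coding genes, -0.39 over 339 lincRNA genes, -1.03 over 263 genes of the provisional type TEC and -1.28 over 29 sense intronic genes. Saline replicate 3 also had the fewest detected genes of its group, 24398 against 27141 and 27444.

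**Figure D4:**
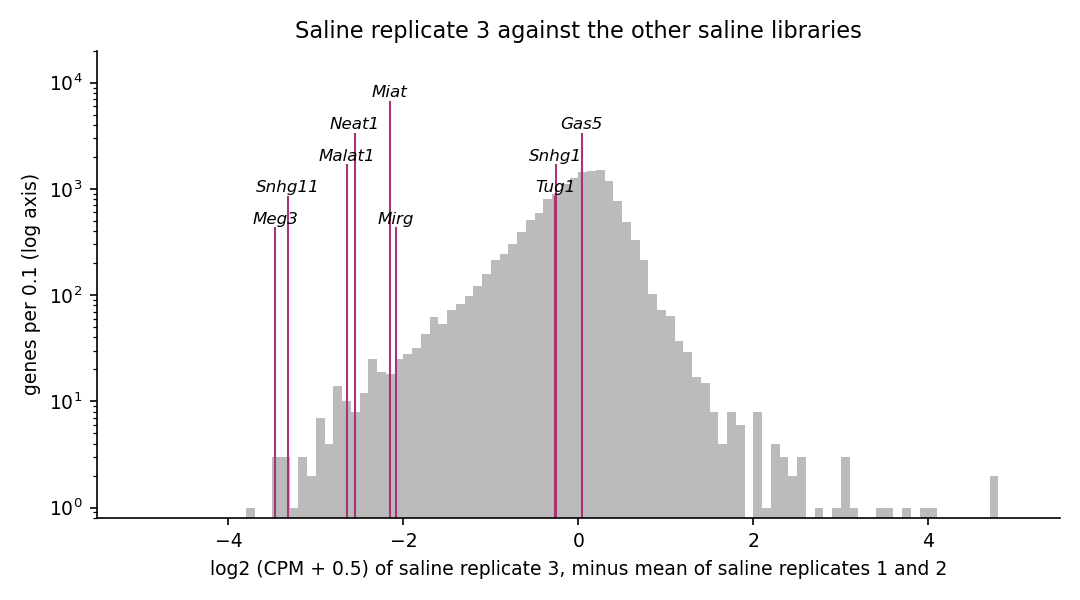
Distribution over 15087 genes of the log2 (CPM + 0.5) level in saline replicate 3 minus the mean of saline replicates 1 and 2, with a log count axis and the members as lines. Meg3, Snhg11, Malat1, Neat1, Miat and Mirg lie in the low tail, at -3.46 to -2.09, and Tug1, Snhg1 and Gas5 lie near 0.

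Per kilobase of merged exon, the order of the members in saline was Malat1 (154 ± 108 CPM per kb, SD, n = 3), Snhg11 (28.3 ± 21.1), Gas5 (21.1 ± 0.88), Tug1 (12.4 ± 1.5), Snhg1 (4.28 ± 0.93), Meg3 (1.71 ± 1.3), Miat (0.974 ± 0.95), Mirg (0.722 ± 0.48) and Neat1 (0.643 ± 0.65). In microbead libraries Snhg11 came before Malat1, at 126 ± 15.8 against 74.7 ± 36.0 CPM per kb, and the order of the others was as in saline. Snhg11 was below Malat1 in each saline library and above it in each microbead library. In saline, Malat1 and Snhg11, Snhg11 and Gas5, and each neighbouring pair from Meg3 down to Neat1 overlapped between libraries. In microbead libraries, of the neighbouring pairs in the order, Malat1 and Gas5 overlapped. These levels rest on all annotated exons, and for Neat1 on its full length of 20771 bases.

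Across the 6 libraries, after each group's mean was taken out, the log2 levels of Meg3 and Snhg11 had a Pearson r of 0.99, Meg3 and Mirg of 0.98, and Malat1 and Snhg11 of 0.94. The points share library and depth, and saline replicate 3 sets much of the range. The log2 ratio of Snhg11 to Meg3 ran from 2.94 to 3.51 over all libraries, although Snhg11 itself spread over a range of 34.0 to 1230 CPM. Gas5 and Snhg1 formed another pair, with r of 0.85, whereas Gas5 and Meg3 had -0.03. Over the 6 libraries, with group means left in, the genes most like Malat1 among 10346 with a mean of at least 10 CPM were Mier1 (r of 0.99, n = 6), Socs4 (0.99) and Zbed4 (0.98). Their ranges were narrower than that of Malat1: Mier1 ran from 51.2 to 76.4 CPM.

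Among genes for 9 proteins of nuclear speckles, where Malat1 RNA resides, the RNA of 4 rose past the threshold and 5 did not pass it. Their median log2 fold change was 0.51. Over all genes tested, 6.46% were higher and 6.31% lower past the threshold. Pnn, a splicing-associated protein, rose from 122, 96.8 and 59.7 CPM to 252, 275 and 242 CPM (log2 fold change 1.46, SE 0.25, adjusted p = 0.0143), and Srrm2, a core speckle protein, rose from 506, 467 and 324 CPM to 570, 1169 and 1234 CPM (SE of the log2 fold change 0.30, adjusted p = 0.0345). Srrm1 and Rbm25 were the others that passed. Saline replicate 3 was the lowest library for Pnn and Srrm2. Among genes for 15 paraspeckle proteins, the partners of Neat1, 4 rose, 1 fell and 10 did not pass at the RNA level, with a median of 0.43. Hnrnph3 rose by 0.95 (SE 0.22, adjusted p = 0.0279), and Nudt21, a factor of 3′ end cleavage, fell by 0.73 on the log2 scale (SE 0.17, adjusted p = 0.0288). Nono, which the paraspeckle requires, rose from 190, 184 and 213 CPM to 311, 304 and 286 CPM (0.62, adjusted p = 0.0362), while its partner Sfpq had a log2 fold change of -0.17 (adjusted p = 0.591). Ewsr1 and Taf15 were the others that rose. Nono, Sfpq and the genes given here only by name were chosen after their values were seen.

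Of 4 other genes of the Dlk1-Dio3 region that were in the table and tested, Begain rose from 58.0, 58.5 and 55.6 CPM to 124, 158 and 159 CPM (log2 fold change 1.36, SE 0.17, adjusted p = 0.00614). Begain encodes a protein of the postsynaptic density, and its saline libraries agreed closely, saline replicate 3 included. Ppp2r5c, Dio3 and Wdr25 did not pass, with log2 fold changes of -0.36 (adjusted p = 0.194), -0.25 (0.872) and -0.05 (0.909). Of 18 other imprinted genes, 2 rose, Plagl1 (1.04, adjusted p = 0.0143) and Nnat (0.78, adjusted p = 0.0266), and 16 did not pass. Over all genes tested, 6.46% rose past the threshold. The largest changes in that list were those of Airn (1.12, adjusted p = 0.145) and H19 (1.07, adjusted p = 0.389), both noncoding RNAs at low levels. Kcnq1ot1, a nuclear imprinted RNA, was at 70.6, 65.4 and 8.38 CPM in saline and at 29.1, 40.8 and 24.3 CPM in microbead libraries, with saline replicate 3 again lowest and the groups overlapping.

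Of 13 other snoRNA host genes tested, Snhg20, Snhg3 and Snhg5 rose and 10 did not pass, with a median log2 fold change of 0.44. Beside this list and those that follow, 6.46% of all genes tested rose past the threshold. Snhg20 was at 23.9, 14.4 and 4.13 CPM in saline and at 75.6, 44.9 and 63.3 CPM in microbead libraries (2.11, SE 0.50, adjusted p = 0.0294). Snhg3 had 0, 4 and 1 counts in saline and 14, 14 and 6 counts in microbead libraries, which were less deep (adjusted p = 0.0242). Of 7 genes for proteins of the box C/D snoRNP, Nop56 rose (0.68, SE 0.18, adjusted p = 0.0400) and 6 did not pass. After Nop56 the largest difference was that of Ruvbl1 (0.26, adjusted p = 0.377). Of 14 factors of nonsense-mediated decay, Casc3 (0.99, SE 0.17, adjusted p = 0.0149) and Upf3b (0.93, SE 0.24, adjusted p = 0.0362) rose and 12 did not pass, with a median of -0.02. Casc3 encodes a component of the exon junction complex, and Upf3b encodes a decay factor that binds this complex.

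Of 14 other named long noncoding RNA genes tested, 4 rose, against 6.46% of all genes tested, and 10 did not pass, with a median of 0.33. Mir124a-1hg, the host of a neuronal microRNA, was at 819, 507 and 59.0 CPM in saline and at 2487, 2462 and 2417 CPM in microbead libraries (log2 fold change 2.41, SE 0.69, adjusted p = 0.0487). Its saline replicate 3 was low, as for Meg3 and Snhg11, with a difference of -3.44 from the other saline libraries on the log2 (CPM + 0.5) scale. Firre, a nuclear RNA from the X chromosome, rose by 1.84 (SE 0.46, adjusted p = 0.0340). C130071C03Rik and Vax2os were the others that rose.

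**Figure D5:**
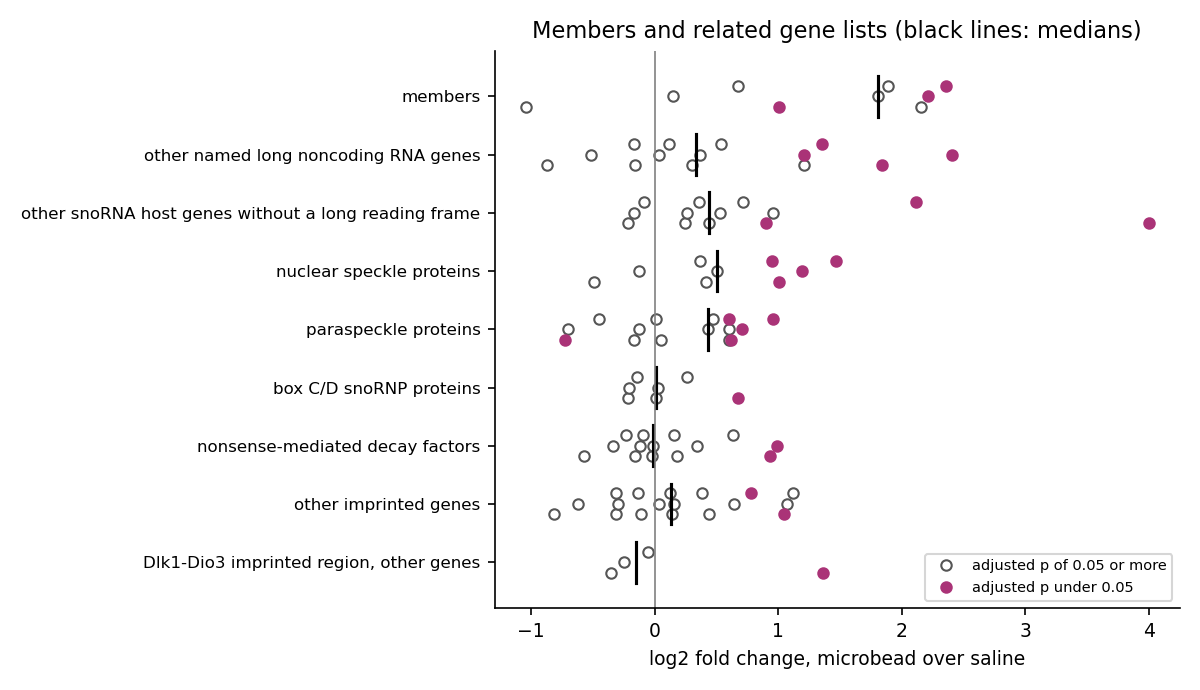
Log2 fold change, microbead over saline, of the 9 members and of the tested genes in 8 related lists (1 point per gene, filled where the adjusted p from edgeR was under 0.05; black lines are medians). The median of the members, 1.81, lies to the right of the list medians, which run from -0.15 to 0.51.

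Of the tested protein-coding genes next to the members that are given here, only Wdr74 passed the threshold of edgeR's test. Frmd8, next to Neat1, had a log2 fold change of -0.77 (adjusted p = 0.0944). Zbtb37, which overlaps Gas5, had -0.30 (0.691). Ralgapb, next to Snhg11, had -0.50 (0.0923), and Slc3a2, 106 bases from Snhg1 on the other strand, had -0.16 (0.595). Osbp2 and Smtn, next to Tug1, had -0.0045 (0.989) and 0.12 (0.811). Cryba4, a lens crystallin gene next to Miat, was not tested, with 1.17, 0.0414 and 8.46 CPM in saline and at most 0.195 CPM in microbead libraries. Wdr74, 9384 bases from Snhg1, had 2, 3 and 2 counts in saline and 30, 9 and 14 counts in microbead libraries, and was at least 13.6-fold higher when saline is set at 3 counts per library (adjusted p = 0.0126 from edgeR).

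Reads from overlapping genes on opposite strands cannot be told apart where counting did not use strand, and the use of strand is not given in the sources used here. Gm26953 overlaps 24.3% of the exon bases of Miat and was at no more than 0.0829 CPM in any library. Morc2a overlaps 4.96% of those of Tug1 and was at 51.6 to 86.0 CPM. Gm37376 and Gm26906, which overlap 6.49% of Malat1 and 6.79% of Meg3, were not analysed here. Of the 100-base stretches of Meg3, 3.43% also occur at another annotated locus, and for the other 8 members this share was at most 0.0703%. Depth did not limit the members: the smallest count of any member in any library was 46, for Mirg in saline replicate 3, which carries a counting error of 14.7%.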

How the data were processed

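The libraries, 3 saline and 3 microbead, held poly(A) RNA from whole retina. The authors aligned the reads with STAR 2.5.3a to GRCm38.p5, counted them on genes with featureCounts, per the labels and the study's methods, and deposited the raw count of each gene in each library. The same deposited table holds the authors' DESeq2 comparison (a mean signal, log2 and linear fold changes or ratios, p-values, adjusted p-values and a column of calls), which was not used. The treatment of reads that map to several places and the use of strand in counting are not given in the sources used here.

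Groups were set from the treatment labels. Genes with low counts were removed by filterByExpr at 10 counts and a total of 15, and the rest were scaled by TMM and compared in edgeR 4.0.16 (R 4.3.3) with its two-sided quasi-likelihood test, Benjamini-Hochberg adjustment over 17707 genes and a threshold of 0.05. CPM are counts per 1000000 of the scaled library size. Alternatives were upper-quartile and RLE scaling, removal of the 100 most abundant genes from the library sizes, DESeq2 1.42.0, limma-voom (limma 3.58.1), no filter, a minimum of 10 counts in each of the 6 libraries, a replicate block, a GC content and length offset (splines with 5 degrees of freedom), and each library left out in turn. Ratios within a library were tested by exact permutation of the libraries (two-sided, difference in means), which cannot go below 0.1 (scipy 1.17.1). Positions and exons came from GENCODE vM21, which matched 99.5% of the gene IDs, and promoter windows from RefSeq (GRCm38.p6).

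Totals ran from 13574949 to 46481382 counts per library, and counting errors cover counting only. Within a group, chi-square per degree of freedom between libraries was 20.7 or more, so that no library repeated another within sampling noise. The members and the gene lists were chosen with earlier results of these data known. The genes named are the members, the 2 largest changes of each list, the Dlk1-Dio3 genes, the nearest protein-coding neighbours, some of which are not reported here, and the 3 genes most like Malat1; others were named after their values were seen.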

Additional observations from a re-analysis of the deposited data

How the results depend on the processing

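With all 6 libraries, 1143 genes were higher and 1118 lower past the edgeR threshold. They numbered 1883 and 1699 with DESeq2, and without the filter 2209 were lower. When each library was left out in turn, they ran from 26 to 1356 higher and from 20 to 1265 lower; without saline replicate 2 they were 142 and 151. Of the members, 6 were higher and 1 lower without the filter, against 4.85% and 7.09% of all genes in that fit, and 5 were higher with limma-voom, against 6.62%. With libraries left out in turn, 0 to 4 members were higher and 0 to 1 lower. Over all genes the shares in those fits ran from 0.135% to 7.83% higher and from 0.104% to 7.3% lower. The lower member was Malat1 without saline replicate 3, when 1 member was also lower without overlap, against 23.2% of all genes. The cause was not tested. The log2 difference of the ratio of Mirg to Meg3 turned from -0.01 to 0.38 without saline replicate 3 and to 0.10 without microbead replicate 2, and it ran from -0.26 to 0.38 over the libraries left out. The log2 ratio of the summed levels of the members was 0.42 with all libraries and -0.02 without saline replicate 3. The log2 fold change of every member kept its sign in all 16 other fits.

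Replicate numbers follow the order of the records and are only names. Libraries with the same number had correlations of -0.04, 0.14 and 0.01, and those with different numbers had -0.20 to 0.14. With these ranges alike, the correlations cannot decide whether any libraries were paired. With the replicate block, 480 genes were higher and 425 lower, and with the block and the GC content and length offset together 711 and 532; Mirg then missed the threshold under the block alone (adjusted p = 0.0530). The ratio of Rian to Meg3 was not run. Groups of 3 are too small for the search for outlying libraries that larger groups allow, and the depth of the libraries did not limit any member. The ratios to Malat1 and of Snhg11 to Meg3, and the overlap without saline replicate 3, were chosen after seeing the data.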
